A study of Mus musculus with 56 samples.

Results

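Genes of mitosis and of the passage from G2 into mitosis were followed in mouse keratinocytes exposed to transforming growth factor β1 (TGF-β1). They were taken by a list of symbols and symbol families (Cenp, Bub, Mad2l, Aurk, Plk, Ccnb, Cdc25, Cdca, Ncap, Cks and Anapc genes, mitotic kinesins and single genes such as Cdk1, Birc5, Top2a and Mki67). The list uses no measured value, but it was chosen with earlier results of these data known. It gave 51 genes, read by 53 probes, of 6795 named genes on the array. Another 5 probes that match Foxm1, Ncaph2 or Aurka were not used because each carries several symbols. All 51 genes were tested, with no filter on low values.

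Each 2-colour array held RNA of cells given TGF-β1 at 1 ng/ml beside RNA of their untreated counterparts. The cells were Balb/c keratinocytes from the skin of newborn mice, kept as primary cultures or transduced on day 3 of culture with a replication-defective retrovirus carrying the Ha-ras oncogene, and treated after 4 days of infection. Responses at 1, 6, 24 and 48 h rest on 6, 7, 6 and 3 arrays of primary cells and on 6, 7, 6 and 4 arrays of ras cells. Smad3 wild type (Smad3+/+) and Smad3 knockout keratinocytes of strain C57B1/SVJ, with and without Ha-ras, were treated for 48 h, with 1 array used for each genotype and cell type. The labels do not say which arrays come from separate cultures, so p-values may measure technical spread alone. All values below are log2 ratios of treated over untreated RNA, a direction that is likely from the channel order given in the labels. The ratios hold no level, so the presence of keratinocyte markers could not be read from them. In whole cultures, fewer cells in mitosis and less of an RNA in each cell cannot be told apart.

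Entry into mitosis is driven by CDK1 bound to cyclins A and B, with the Cdc25 phosphatases removing the inhibitory phosphates from CDK1 and Plk1 and the Aurora kinases acting beside it. Centromere proteins build the kinetochore that holds spindle microtubules, the checkpoint proteins Mad2, BubR1 and Mps1 delay anaphase until every chromosome is attached, and the anaphase promoting complex then marks securin and cyclin B for destruction. TGF-β1 is known as an inhibitor of epithelial proliferation that halts keratinocytes in G1. Many promoters of G2/M genes carry a cell cycle genes homology region (CHR), bound by the DREAM and MuvB complexes, and CCAAT boxes, bound by NF-Y, a short distance from the CHR.

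RefSeq promoter windows (GRCm38.p6), from 250 bases before to 50 bases after the transcription start, were found for 43 of the 51 genes. They hold 46 windows, since a gene can have several starts. The windows were searched on both strands for the CHR element TTTGAA, for a variant of that element, TTCGAA, and for the CCAAT box. TTTGAA was found in 58.7% of the windows of these genes and in 17.89% of all 32851 windows. The variant TTCGAA was found in 6.52% and 1.56%, and CCAAT in 65.22% and 37.41%. Either CHR form was found in 58.7% and 19.23%, since every window of these genes with the variant also held TTTGAA. A CHR of either form together with CCAAT was found in 50.0% of the windows of these genes and in 7.52% of all windows. A match describes the letters only, and no match says only that they are not in this window.

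Of the genes that fell at 24 h in both cell types (below), Mki67, Cenpa, Plk1 and Ncapg have a CHR in the window, and their 250 bases before the start are printed to show how the elements lie. Birc5, Mad2l1 and Ncaph, which also fell in both, have neither CHR nor CCAAT in the window, and Ccna2 has no window. A CHR was found in 57.14% of the 7 windows of genes that fell in both and in 58.7% of the windows of all the genes followed. Mki67 reads from chr7:135716380-135716629 on the minus strand, Cenpa from chr5:30666636-30666885, Plk1 from chr7:122159185-122159434 and Ncapg from chr5:45669675-45669924, the last 3 on the plus strand. Capitals mark the CHR element and the CCAAT box, the latter reading ATTGG where it lies on the opposite strand.
Mki67: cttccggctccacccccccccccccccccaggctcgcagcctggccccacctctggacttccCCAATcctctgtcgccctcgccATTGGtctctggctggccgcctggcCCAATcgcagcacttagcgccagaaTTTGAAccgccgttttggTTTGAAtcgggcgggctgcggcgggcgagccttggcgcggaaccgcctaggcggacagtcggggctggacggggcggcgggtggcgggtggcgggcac
Cenpa: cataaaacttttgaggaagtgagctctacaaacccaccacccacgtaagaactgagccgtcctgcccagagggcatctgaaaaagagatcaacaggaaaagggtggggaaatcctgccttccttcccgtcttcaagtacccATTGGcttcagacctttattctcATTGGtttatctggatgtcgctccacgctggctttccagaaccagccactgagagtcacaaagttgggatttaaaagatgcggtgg
Plk1: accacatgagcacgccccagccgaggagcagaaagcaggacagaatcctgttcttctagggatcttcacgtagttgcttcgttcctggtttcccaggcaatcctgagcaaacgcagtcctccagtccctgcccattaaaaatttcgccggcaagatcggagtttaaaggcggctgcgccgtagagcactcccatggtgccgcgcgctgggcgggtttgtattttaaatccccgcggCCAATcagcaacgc
Ncapg: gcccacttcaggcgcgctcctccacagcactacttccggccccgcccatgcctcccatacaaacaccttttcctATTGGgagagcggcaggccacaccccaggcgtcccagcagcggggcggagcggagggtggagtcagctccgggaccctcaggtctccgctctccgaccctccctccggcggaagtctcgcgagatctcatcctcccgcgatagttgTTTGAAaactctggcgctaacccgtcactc
The Mki67 promoter holds 3 CCAAT boxes followed by 2 TTTGAA elements. Ncapg has 1 CCAAT box far upstream and 1 TTTGAA close to the start. In Cenpa and Plk1 the TTTGAA lies after the start, beyond the letters printed, at 17 and 31 bases, with 2 CCAAT boxes before the start in Cenpa and 1 in Plk1.

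Array quality bore on every value. The SD of all log2 ratios of an array ran from 0.191 (primary 6 h replicate 5) to 1.81 (ras 24 h replicate 1). Among 1176 pairs of arrays with the treated RNA in Cy5, 6 correlated below -0.3 over all features, and primary 1 h replicate 3 with ras 24 h replicate 3 at -0.877, so the sign of these arrays is not settled by the values. With the sign of ras 24 h replicate 3 turned, 17 of the genes were lower and 0 higher at 24 h in ras cells, of which 11 were among the 17 reported below. Anln, Ccna2, Kif23, Ncapg, Nusap1 and Plk1 were then not called lower (limma adjusted p from 0.0668 to 0.344), nor was Plk2 called higher (0.264). With that of ras 48 h replicate 4 turned, 3 were lower at 48 h, among them Bub1b and Kif11 but not Kif4 (limma adjusted p 0.088) or Kif20a (0.144). With that of primary 1 h replicate 3 turned 0 differed between 24 and 1 h in primary cells (Birc5 at a limma adjusted p of 0.0578), and with that of primary 6 h replicate 4 turned 0 were called at 6 h. The shares of all features called with these signs turned are not given here. The 7 arrays with dyes the other way round were left out because the labels do not say whether their sign was turned. Since all arrays used have 1 dye orientation, any dye bias of a gene is part of its response.

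At 24 h the mitotic genes were lower after TGF-β1 in both cell types. In primary cells 8 of the 51 genes fell and 0 rose at an adjusted p under 0.05 (limma, Benjamini-Hochberg over 8905 features), or 15.7% of the genes against 0.999% of all features called lower. In ras cells 17 fell, or 33.3% against 6.63% of all features, and 1 rose, against 3.92% of all features called higher. The median log2 ratio of the 51 genes was -0.42 in primary and -0.37 in ras cells, and that of all features -0.02 and 0.01. Below 0 were 43 of the 51 genes in primary and 42 in ras cells. All 8 genes that fell in primary cells were among the 17 of ras cells (47.1% of the latter): Birc5, Cenpa, Plk1, Mad2l1, Mki67, Ccna2, Ncaph and Ncapg.

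The fit takes 1 spread from all groups for each gene. With the spread taken from the 6 arrays of the group only, the 24 h response gave 0 called genes of the 51 in either cell type (limma), with 22 in primary and 23 in ras cells at an unadjusted p under 0.05, and 11 and 3 called among all features. Without replicate 2 or 6 the primary count became 4 and 3, and without replicate 6 the ras count of calls either way became 10 in place of 18. Shares of all features at the unadjusted p on own arrays, or called without an array, are not given here.

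**Figure D1:**
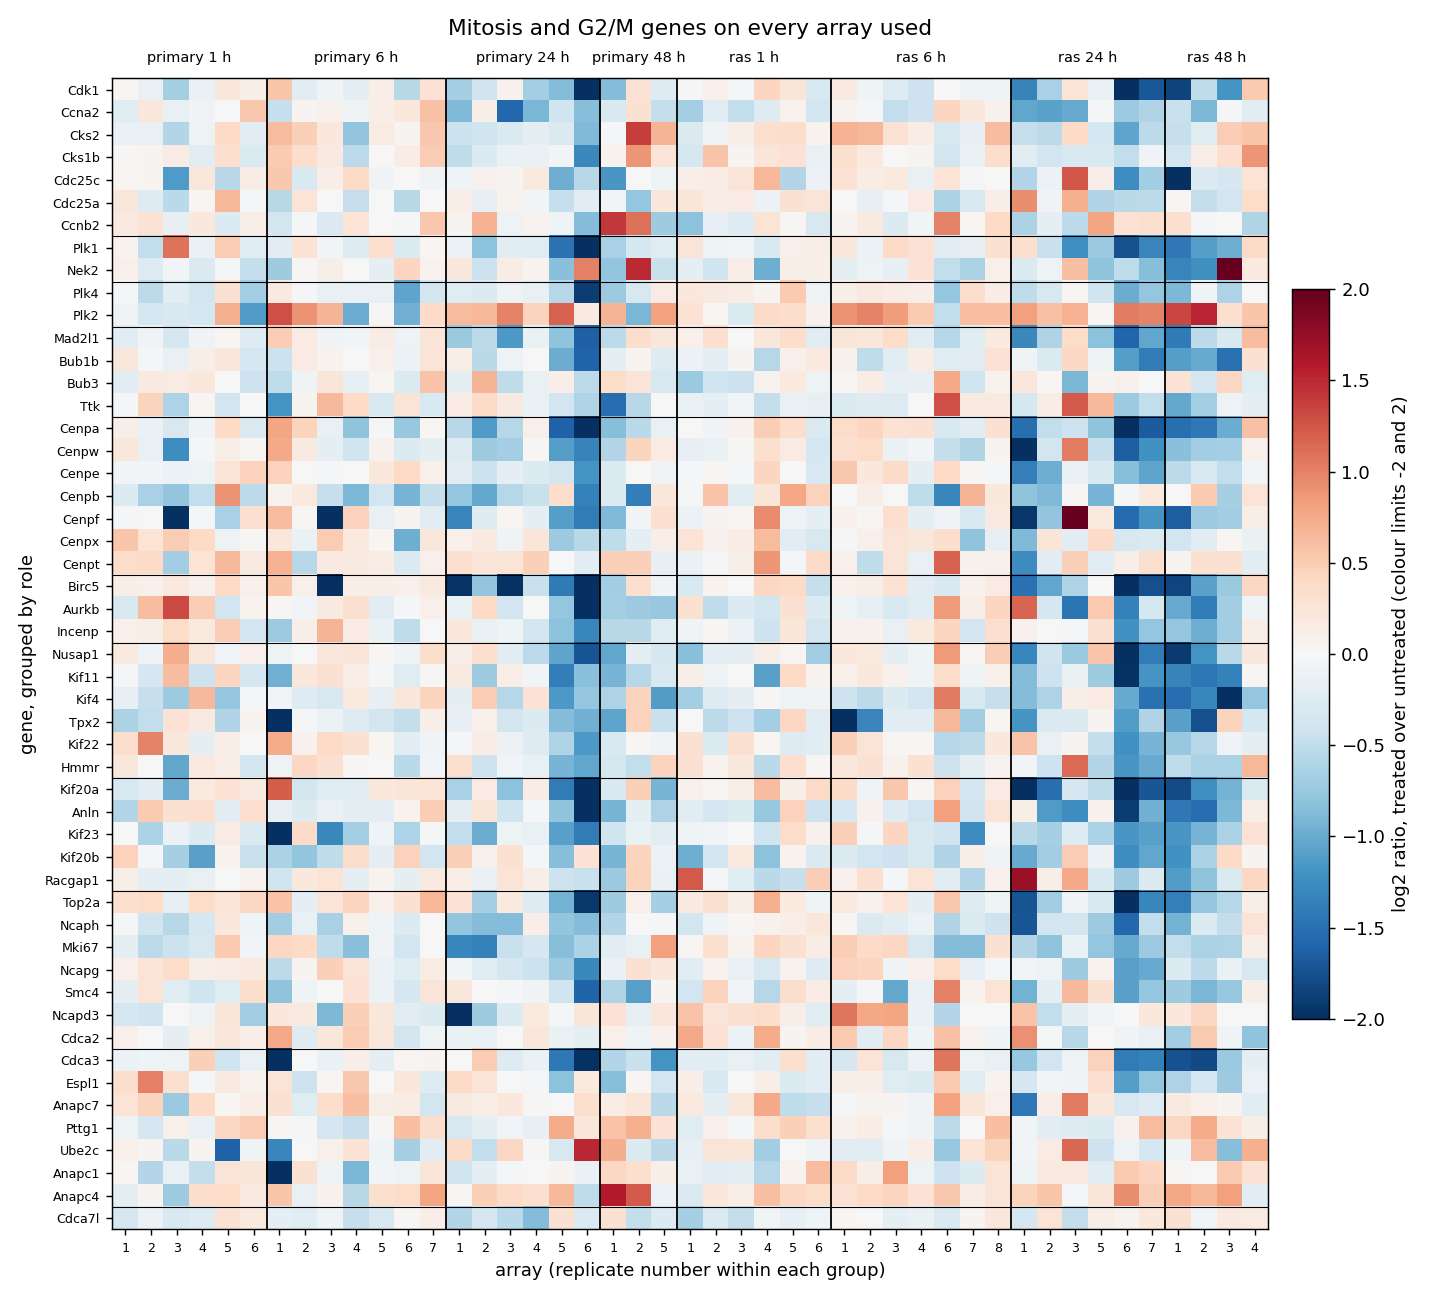
Log2 ratio of treated over untreated RNA (colour, limits -2 and 2) of the 51 genes (lines, grouped by role and within a role by the ras 24 h mean) on every array used (columns, by group and replicate). The blue columns stand at 24 h and 48 h, deepest on primary 24 h replicates 5 and 6, ras 24 h replicates 6 and 7 and ras 48 h replicates 1 and 2.

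Among the 7 cyclin, CDK1 and phosphatase genes, cyclin A2 (Ccna2), the partner of CDK1 and CDK2 in S phase and G2, fell in both cell types. Its log2 ratios on the 6 primary arrays had a lowest value of -1.57, a median of -0.87 and a highest of 0.11. On the 6 ras arrays they ran from -1.07 over a median of -0.87 to -0.04. All but 1 of the primary arrays and all of the ras arrays lay below 0. The mean was -0.75 in primary cells (SE 0.15, 1.69-fold lower, limma adjusted p 0.00372) and -0.75 in ras cells (SE 0.15, 1.68-fold lower, limma adjusted p 0.0022). Without primary replicate 3 the primary adjusted p of limma became 0.0505, and with the sign of ras replicate 3 turned the ras one became 0.164. Cdk1, the mitotic kinase itself, fell in ras cells (-0.97, SE 0.24, limma adjusted p 0.00895, and 0.0594 without replicate 6) and averaged -0.76 in primary cells (limma adjusted p 0.107). The CDK1 subunit gene Cks1b averaged -0.40 (primary) and -0.30 (ras), and Cks2 -0.41 and -0.42, with no call. The mean of Ccnb2, a B-type cyclin, was -0.04 and 0.01, and those of Cdc25a and Cdc25c lay between -0.21 and -0.02.

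Plk1, the Polo-like kinase of mitotic entry and spindle assembly, fell in both cell types. Its primary arrays ran from -2.46 over a median of -0.53 to -0.11, all below 0. Its ras arrays ran from -1.75 over a median of -0.99 to 0.32, with 5 of 6 below 0. The means were -0.89 (SE 0.23, 1.85-fold lower, limma adjusted p 0.029) and -0.86 (SE 0.23, 1.82-fold lower, limma adjusted p 0.0139). The primary call was lost without replicate 2, 5 or 6 (limma adjusted p up to 0.405) and the ras call without replicate 6 (0.0699) or with the sign of replicate 3 turned (0.293). Plk2, a stress-responsive Polo-like kinase outside mitosis, went the other way. Its arrays ran from 0.17 to 1.17 in primary and from 0.04 to 1.02 in ras cells, above 0 on every array. It rose in ras cells (0.69, SE 0.23, 1.62-fold, limma adjusted p 0.0478) and averaged 0.68 in primary cells (limma adjusted p 0.172). The ras call was lost without replicate 1, 2, 3, 6 or 7 (limma adjusted p up to 0.149). It was also lost in 10 of 11 other settings, all but the upload block (a name explained below) as a random term. Plk4, the kinase of centriole duplication, averaged -0.54 and -0.49 and was not called, and neither was Nek2, a centrosome kinase (0.03 and -0.32).

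Of 4 spindle checkpoint genes, Mad2l1, which encodes Mad2, fell in both cell types. Its primary arrays ran from -1.63 over a median of -0.78 to -0.14, and its ras arrays from -1.59 over a median of -0.93 to 0.37. All primary arrays and 5 of 6 ras arrays were below 0. The means were -0.83 in both (SE 0.18, 1.78-fold and 1.77-fold lower, limma adjusted p 0.00852 and 0.00468). Without primary replicate 6 the primary adjusted p of limma became 0.121. Bub1b, which encodes BubR1, averaged -0.52 and -0.42, Bub3 -0.10 and -0.09, and Ttk, the Mps1 kinase, -0.07 and 0.08, none of them called.

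Of 7 centromere genes, Cenpa, the histone H3 variant that marks the centromere, fell in both cell types. Its primary arrays ran from -2.15 over a median of -0.85 to 0.10, and its ras arrays from -2.69 over a median of -1.15 to -0.42. The means were -0.99 (SE 0.24, 1.98-fold lower, limma adjusted p 0.0216) and -1.26 (SE 0.24, 2.40-fold lower, limma adjusted p 0.00124). The primary call was lost without replicate 2, 5 or 6 (limma adjusted p up to 0.268), and the ras call held without any one array. Cenpe, a kinetochore kinesin, fell in ras cells, where its arrays ran from -1.36 over a median of -0.91 to -0.13 (mean -0.78, SE 0.13, limma adjusted p 0.000198). In primary cells it averaged -0.44 (limma adjusted p 0.068). Its 2 probes differed: 1 had means of -0.80 (primary) and -1.01 (ras), the other of -0.09 and -0.55. Cenpw, a histone-fold protein of the inner kinetochore, also fell in ras cells (-0.78, limma adjusted p 0.0243), a call lost without replicate 1, 6 or 7 (up to 0.22). Cenpb, Cenpf, Cenpt and Cenpx were not called, with means from -0.70 (Cenpf, primary) to 0.17 (Cenpt, primary).

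Birc5, which encodes survivin of the chromosomal passenger complex, had the deepest mean of all 51 genes in primary cells. Its primary arrays ran from -2.71 over a median of -1.69 to -0.44, and its ras arrays from -2.65 over a median of -1.27 to -0.01, so that all 12 values lay below 0. The means were -1.55 in primary cells (SE 0.27, 2.93-fold lower, limma adjusted p 0.000411) and -1.26 in ras cells (SE 0.27, 2.40-fold lower, limma adjusted p 0.00271). Both calls held when any one array of the group was left out. The other 2 genes of the complex, Aurkb (the kinase Aurora B) and Incenp (its scaffold), were not called: Aurkb averaged -0.49 (primary) and -0.30 (ras), and Incenp -0.42 and -0.27.

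The 6 spindle and mitotic kinesin genes were all below 0 at a median of -0.40 (primary) and -0.59 (ras), and 2 of them were called, in ras cells. Kif11 (Eg5, which pushes the spindle poles apart) averaged -0.88 (SE 0.20, limma adjusted p 0.00575) and Nusap1, a microtubule-bundling protein, -0.94 (SE 0.24, limma adjusted p 0.0109). The Nusap1 call was lost without replicate 1 or 6 (up to 0.0773) or with the sign of replicate 3 turned (0.0883). Kif4, a chromosome kinesin, averaged -0.31 in primary and -0.61 in ras cells (limma adjusted p 0.0579 in the latter). Hmmr, Kif22 and Tpx2 were not called.

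Of 5 cytokinesis genes, 3 fell in ras cells and 0 were called in primary cells. Kif20a, a kinesin of the central spindle, had ras arrays from -2.50 over a median of -1.61 to -0.34 and a mean of -1.46 (SE 0.24, 2.75-fold lower, limma adjusted p 0.000264). It held without any one array. In primary cells its arrays ran from -2.15 to 0.16, and the mean of -0.78 was not called (limma adjusted p 0.11). Anln, an actin-binding protein of the contractile ring, fell in ras cells (-0.84, limma adjusted p 0.0199, and 0.106 without replicate 6 or 0.342 with the sign of replicate 3 turned). Kif23, a subunit of centralspindlin, fell there too (-0.73, limma adjusted p 0.0255), a call lost without replicate 1, 6 or 7 (up to 0.0828) or with the sign of replicate 3 turned (0.0668). The mean of Kif23 in primary cells was -0.70 (limma adjusted p 0.094). Racgap1, the partner of Kif23 in centralspindlin, averaged -0.08 and 0.21, with ras arrays from -0.73 over a median of -0.08 to 1.71.

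Chromosome structure genes gave 3 of the 8 primary calls and 4 of the 17 ras calls. Mki67, which encodes the proliferation antigen Ki-67 that coats mitotic chromosomes, had primary arrays from -1.35 over a median of -0.74 to -0.34 and ras arrays from -1.02 over a median of -0.75 to -0.14. Every array lay below 0. The means were -0.82 (SE 0.18, 1.77-fold lower, limma adjusted p 0.00586, and 0.0514 without replicate 2) and -0.68 (SE 0.18, 1.60-fold lower, limma adjusted p 0.0133). Ncaph and Ncapg encode subunits of condensin I. Ncaph lay between -0.86 and -0.79 on 5 primary arrays and at 0.13 on replicate 4, and its ras arrays ran from -1.71 over a median of -0.61 to -0.36. Its means were -0.67 (SE 0.15, limma adjusted p 0.0109, lost without replicate 2 or 6 at up to 0.0711) and -0.87 (SE 0.15, limma adjusted p 0.000576). Ncapg ran from -1.29 over a median of -0.38 to -0.06 on the primary arrays and from -1.08 over a median of -0.40 to 0.07 on the ras arrays. Its means of -0.51 and -0.48 (SE 0.13, limma adjusted p 0.0362 and 0.0203) were the smallest of the 8 shared falls. They were lost without primary replicate 3, 4, 5 or 6 (up to 0.404) and without ras replicate 6 or 7 (up to 0.108) or with the sign of ras replicate 3 turned (0.344).

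Top2a, the topoisomerase that untangles sister chromatids, fell in ras cells. Its ras arrays ran from -2.18 over a median of -0.997 to -0.07, all below 0, with a mean of -1.05 (SE 0.21, 2.06-fold lower, limma adjusted p 0.00171). In primary cells the mean was -0.55 (limma adjusted p 0.258). The mean of Ncapd3, a condensin II subunit, was -1.07 in primary cells but rests on replicate 1 at -5.81, with the other arrays between -0.72 and 0.25 (limma adjusted p 0.187). Smc4, the condensin ATPase, averaged -0.32 and -0.34 and was not called.

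The 7 genes of the anaphase promoting complex and its targets had medians near 0 (0.04 in primary and -0.02 in ras cells) and no call. Anapc4, a scaffold subunit, had means of 0.23 and 0.43, with arrays from -0.52 to 0.66 and from -0.04 to 0.93 (limma adjusted p 0.815 and 0.095). Ube2c, the ubiquitin-conjugating enzyme of the complex, had means of 0.25 and 0.07, with arrays from -0.50 to 1.51 and from -0.41 to 1.16. Cdca3, a mitotic entry factor that the complex degrades, averaged -0.55 and -0.59.

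**Figure D2:**
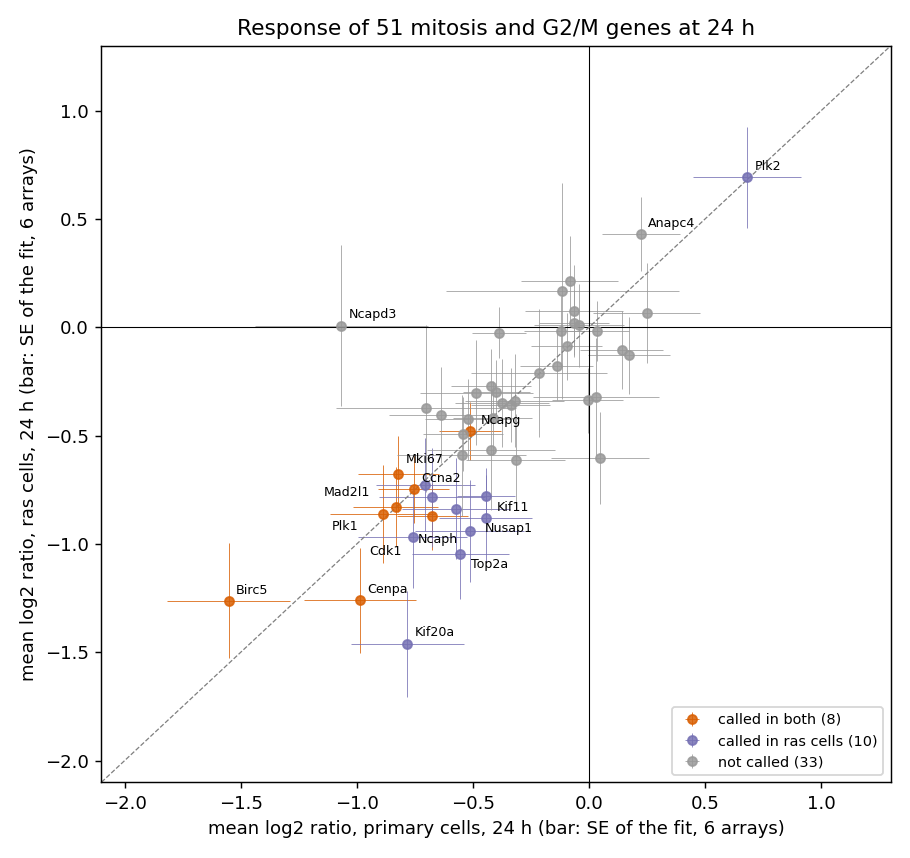
Mean log2 ratio at 24 h in primary cells (x axis) against ras cells (y axis) for the 51 genes, each bar the SE of the fit; colours give the 8 genes called in both, the 10 called in ras cells and the 33 not called, and the dashed line marks equal response. Most points lie in the lower left along that line, with Birc5, Cenpa and Kif20a lowest and Plk2 highest.

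Across the 51 genes the 24 h means of primary and ras cells correlated at a Pearson r of 0.766 and a Spearman rho of 0.755, and 37 genes were below 0 in both. The points are genes measured on the same arrays, not replicates.

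The size of the 24 h fall moved with the block of mAdb database numbers in the labels, taken as the first 2 digits of each array's number. Upload block is only a name used here, since the labels do not say that the number marks an upload or a batch. In primary cells the median of the 51 genes was -0.13, -0.18, -0.10 and -0.08 on replicates 1 to 4 (blocks 35 and 36) and -0.78 and -0.89 on replicates 5 and 6 (blocks 39 and 40). In ras cells it was -0.55, -0.34, -0.07 and -0.12 on replicates 1, 2, 3 and 5 (blocks 34 to 36) and -1.08 and -0.77 on replicates 6 and 7 (blocks 39 and 40). The 2 later blocks thus lay lower than every earlier array in both cell types. Of the 51 genes, 41 (primary) and 39 (ras) had a lower mean in blocks 39 and 40 than in blocks 34 to 36. The difference between blocks was seen in the data and was not tested.

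Single genes differed in how far they followed the block. Plk1 averaged -0.35 in the earlier and -1.97 in the later blocks (primary), and -0.53 and -1.53 (ras). Bub1b averaged -0.13 and -1.30 (primary), and -0.01 and -1.25 (ras). In primary cells Ccna2 averaged -0.82 and -0.63 and Mki67 -0.86 and -0.74, and in ras cells Ccna2 averaged -0.79 and -0.67 and Mki67 -0.58 and -0.87. Ccna2 was thus no lower in the later blocks in either cell type and Mki67 was lower there in ras cells alone, while Plk1 and Bub1b were lower in the later blocks in both. With the earlier 24 h arrays alone, 3 (primary) and 6 (ras) of the 51 genes were called lower, against 0.741% and 5.51% of all features. With the later arrays alone 22 and 20 were called lower, against 2.93% and 1.9% of all features (limma). Genes of DNA replication moved with the block too: their median of 41 genes in primary cells was -0.10 and -0.09 in blocks 35 and 36 and -0.45 and -1.03 in blocks 39 and 40. The 7 markers of keratinocyte differentiation stood at -0.20 and -0.38, and at -1.10 and -1.20. In ras cells these markers did not follow the block, at -0.68, -0.61 and -0.05 in blocks 34, 35 and 36 and at -0.30 and -0.86 in blocks 39 and 40. At 1 h the same later blocks gave medians of the 51 genes of 0.18 and 0.02 (primary) and 0.13 and -0.10 (ras). What the database number stands for is not stated, and its part in the fall was not tested.

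**Figure D3:**
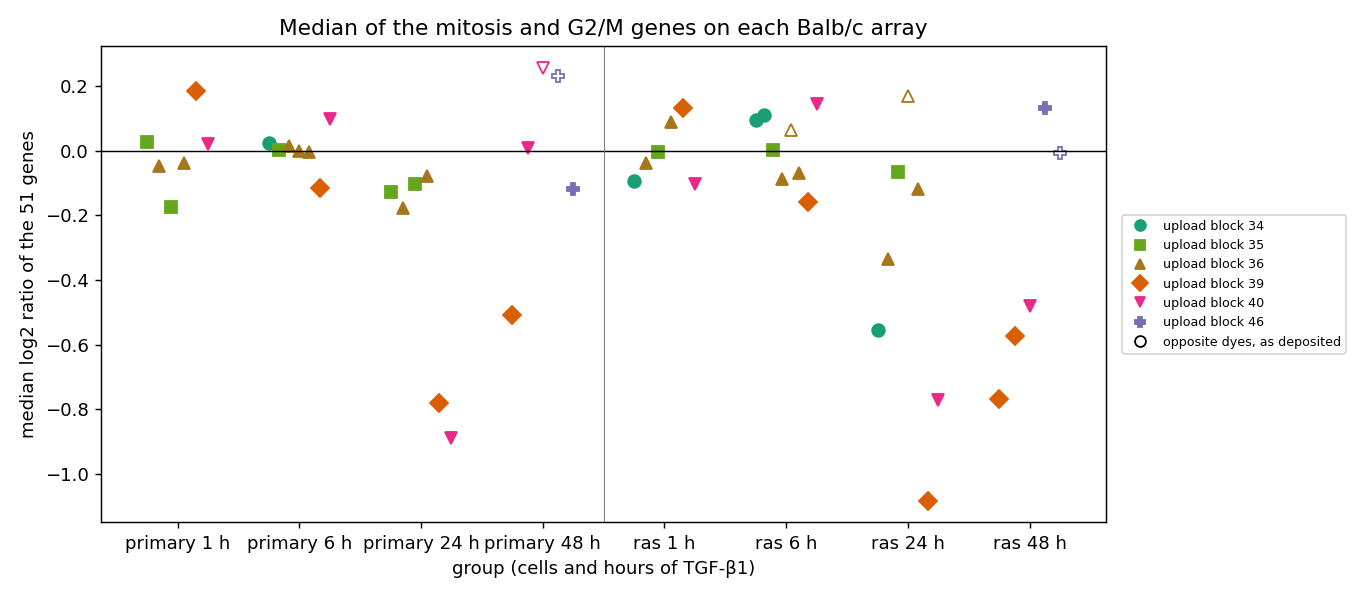
Median log2 ratio of the 51 genes on each Balb/c array (y axis) by cell type and time (x axis), with marker and colour for the upload block and open markers for arrays of opposite dyes as deposited. Medians at 1 and 6 h lie within 0.2 of 0, and at 24 h the arrays of blocks 39 and 40 lie lowest in both cell types.

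At 48 h in ras cells 4 of the 51 genes were called lower, or 7.84% against 1.59% of all features, and 0 higher, against 1.97%. The median of the genes was -0.40, with 38 below 0. Kif4 was at -1.53, -1.30, -2.14 and -0.78 on the 4 arrays. All were below 0, and the mean was -1.44 (SE 0.26, limma adjusted p 0.00183), a call that held without any one array but not with the sign of replicate 4 turned (limma adjusted p 0.088). Kif11 (-1.34, -1.44, -1.35 and 0.02), Kif20a (-1.79, -1.23, -0.95 and -0.30) and Bub1b (-1.10, -1.004, -1.49 and 0.30) were low on replicates 1 to 3 and higher on replicate 4. Their means were -1.03, -1.07 and -0.82 (SE 0.25, 0.30 and 0.23, limma adjusted p 0.0158, 0.0361 and 0.0354). These 3 calls were lost without replicate 1, 2 or 3 (limma adjusted p up to 0.306), and that of Kif20a also with the sign of replicate 4 turned (0.144).

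Ras 48 h replicate 4 stood apart, with a median of 0.13 for the 51 genes against -0.77, -0.57 and -0.48 on replicates 1 to 3. It is also the only ras 48 h array used of upload block 46. Without it 13 genes were lower and 2 higher, and without replicate 1, 2 or 3 there was 1 call each. On its own 4 arrays the response gave 0 calls, with 18 of the genes at an unadjusted p under 0.05. For these fits the shares of all features are not given here.

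Among the other genes with the largest 48 h means in ras cells, Cdca3 was at -1.74, -1.81, -0.74 and -0.20 (mean -1.12, limma adjusted p 0.0543). Cdc25c was at -4.02, -0.27, -0.34 and 0.27, so its mean of -1.09 rests on replicate 1 (limma adjusted p 0.0765). Above 0, Plk2 was at 1.34, 1.53, 0.33 and 0.55 (mean 0.94, limma adjusted p 0.054), Anapc4 at 0.77, 0.66, 0.83 and -0.23, and Pttg1, which encodes securin, at 0.41, 0.75, 0.29 and 0.12 (mean 0.39, limma adjusted p 0.186). No call was made for these genes. The 8 genes that fell at 24 h in both cell types had 48 h means in ras cells from -0.84 (Cenpa) to -0.31 (Ncapg).

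In primary cells at 48 h 0 of the genes fell (3.44% of all features were called lower) and 1 rose (5.2% called higher), with 3 lower and 4 higher at an unadjusted p under 0.05. Of all features, 22.1% had such an unadjusted p. The gene that rose was Anapc4, at 1.59, 1.23 and -0.12 on the 3 arrays (mean 0.90, SE 0.24, limma adjusted p 0.0125). Replicates 1 and 2 were high and replicate 5 was not, and the call was lost without replicate 1 or 2 (limma adjusted p up to 0.324). The count of calls became 0 without replicate 2 and 2 without replicate 5. The median of the genes was -0.16, with 35 below 0, and the arrays differed, at -0.51, 0.01 and -0.12. The lowest means were those of Cdca3 (-0.59, -0.44 and -1.20), Aurkb (-0.67, -0.73 and -0.76) and Ttk (-1.52, -0.55 and -0.01), at -0.74, -0.72 and -0.70. Cks2 (-0.02, 1.38 and 0.68) and Ccnb2 (1.42, 1.11 and -0.71) had means of 0.68 and 0.60. None of these 5 was called (limma adjusted p 0.0701 for Cks2 and from 0.147 to 0.27 for the others). Birc5, the deepest fall at 24 h, was at -0.70, 0.34 and -0.07.

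**Figure D4:**
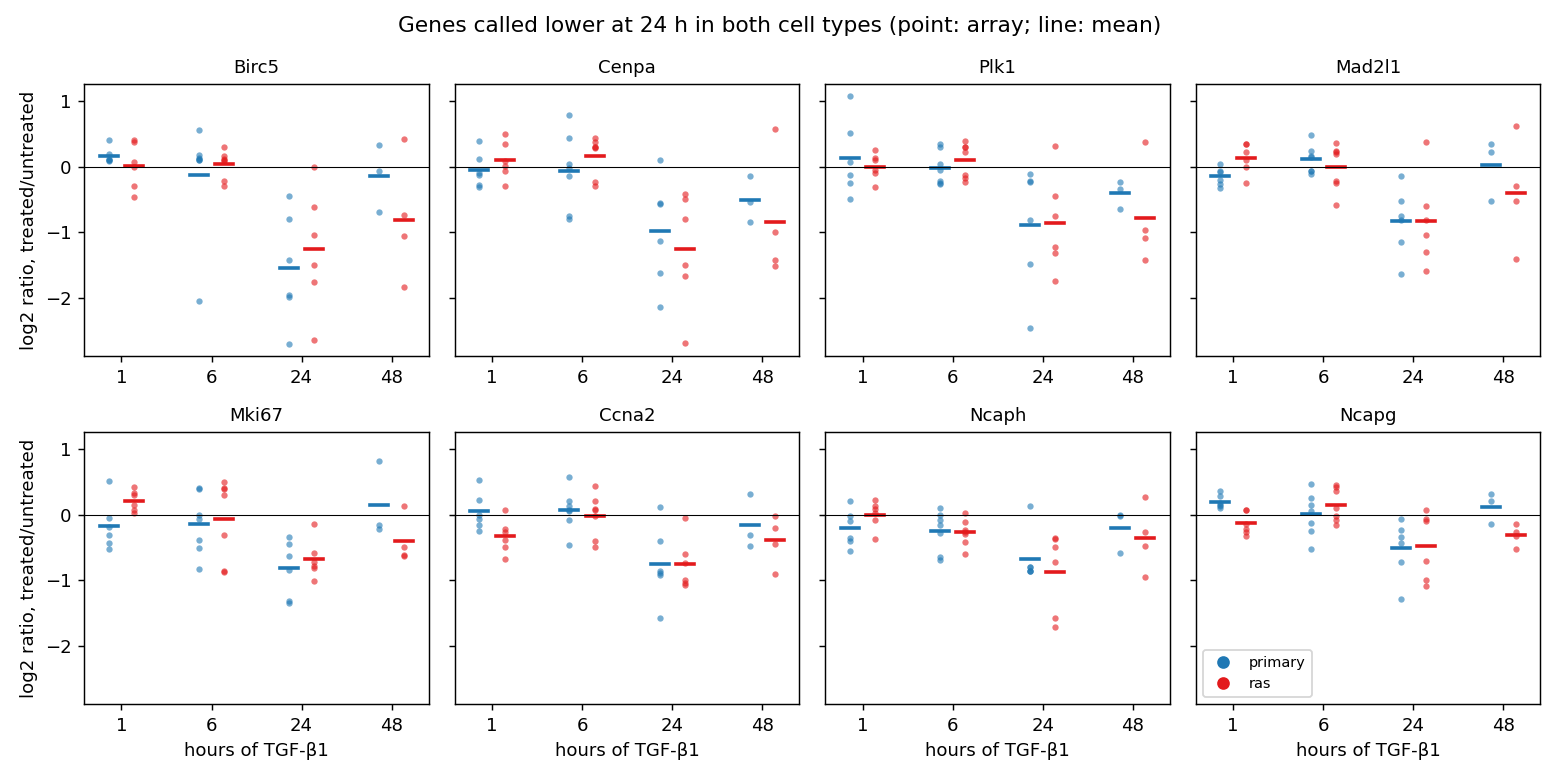
Log2 ratio on each array (points) and group mean (short lines) of the 8 genes called lower at 24 h in both cell types, over hours of TGF-β1, primary cells in blue and ras cells in red. Means lie nearer 0 at 1 and 6 h, are lowest at 24 h, and at 48 h lie lower in ras than in primary cells for each of the 8 genes.

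At 1 and 6 h 0 of the 51 genes were called in either cell type (limma). The shares of all features called were 0.0112% in primary cells at 1 h, 0.0112% at 6 h, 0.0786% in ras cells at 1 h and 1.72% at 6 h. In the same order, 1, 2, 3 and 3 of the 51 genes had an unadjusted p of limma under 0.05. Such a p was found for 5.39%, 9.41%, 7.04% and 12.04% of all features. Below 0 were 29, 27, 25 and 21 of the 51 genes, against 53.71%, 51.42%, 49.83% and 49.89% of all features. The medians of the 51 genes were -0.06, -0.01, 0.00 and 0.04. At 6 h in primary cells the mean of Anapc1, the platform subunit of the anaphase promoting complex, was -1.25, with 1 array at -8.15 and a median of -0.10. Plk2 at 6 h averaged 0.56 in ras cells and 0.19 in primary cells and was not called (limma adjusted p 0.226 and 0.934).

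Later responses were set against earlier ones. From 1 to 24 h in primary cells, 1 gene fell, Birc5, or 1.96% of the genes against 0.157% of all features called lower. Its 1 h arrays ran from 0.09 to 0.40 and did not overlap those at 24 h, and the difference was -1.72 (SE 0.38, limma adjusted p 0.0326). The call was lost without any one of the 1 h arrays or without 24 h replicate 1, 3 or 6 (limma adjusted p up to 0.144). In ras cells 5 genes fell, or 9.8% against 0.46% of all features: Kif20a, Cenpe, Top2a, Ncaph and Cenpa. Kif20a ran from 0.04 to 0.62 at 1 h, above every 24 h array, and the difference of -1.69 (SE 0.35, limma adjusted p 0.0106) held without any one array. The differences of Cenpe (-0.79), Top2a (-1.28), Ncaph (-0.87) and Cenpa (-1.36) had limma adjusted p of 0.0189, 0.021, 0.0326 and 0.0355. Cenpa ran from -0.29 to 0.50 at 1 h and did not overlap its 24 h arrays. Top2a at 1 h ran from -0.08 to 0.72, Cenpe from -0.32 to 0.44 and Ncaph from -0.36 to 0.22, and these 3 overlapped their 24 h arrays.

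The ras calls were sensitive to single arrays. The Cenpe call was lost without 1 h replicate 4 or 24 h replicate 1 or 7 (limma adjusted p up to 0.0726). That of Top2a was lost without 1 h replicate 2 or 4 or 24 h replicate 1, 6 or 7 (up to 0.0863). Ncaph was lost without 1 h replicates 2 to 6 or 24 h replicate 1 or 6 (up to 0.113), and Cenpa without 1 h replicates 1 to 5 or 24 h replicate 1, 6 or 7 (up to 0.133). With the sign of ras 24 h replicate 3 turned, Cenpa (0.0833) and Ncaph (0.096) were not called. The count of 5 became 1 without 1 h replicate 4 or 24 h replicate 1, 2 without 1 h replicate 2 or 24 h replicate 6 or 7, 3 without 1 h replicate 3 or 5, and 10 without 24 h replicate 3.

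From 24 to 48 h, Cks2 rose in primary cells, 1 of the 51 genes against 1.22% of all features called higher. Its 24 h arrays ran from -0.89 to -0.20, below each of the 48 h arrays (-0.02, 1.38 and 0.68), and the difference was 1.09 (SE 0.29, limma adjusted p 0.0464). This call was lost without 24 h replicate 1, 2, 3, 4 or 6 or 48 h replicate 2 or 5 (up to 0.423). It was also lost in 6 of 10 other settings, among them the upload block as a fixed term. Every Balb/c 48 h array used is of upload block 39, 40 or 46. Of the 6 arrays at 24 h in each cell type, 4 are of blocks 34 to 36. Time and block are thus mixed in the differences between 24 and 48 h and cannot be told apart. The difference of Birc5 was 1.41 (SE 0.46, limma adjusted p 0.115) and that of Mki67 0.97 (SE 0.30, limma adjusted p 0.0953). In ras cells 0 genes were called (limma), against 0.0112% of all features. An unadjusted p under 0.05 was found for 4 of the genes and for 10.6% of all features.

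The response of ras cells was set against that of primary cells at each time, and 0 of the 51 genes were called at any time (limma). The shares of all features called were 0.0%, 0.0%, 0.0449% and 0.202% at 1, 6, 24 and 48 h. An unadjusted p under 0.05 was found for 0, 1, 3 and 1 of the genes, against 4.17%, 4.51%, 10.3% and 6.69% of all features. At 24 h the median difference of ras minus primary cells was 0.00. The 3 genes with an unadjusted p of limma under 0.05 were Cdca7l (0.36), Kif20b (-0.65) and Ncapd3 (1.08, whose primary mean rests on replicate 1). Kif20a differed by -0.68, with a 95% interval from -1.36 to -0.00127, and Top2a by -0.49 (from -1.07 to 0.09). The intervals are 1.96 SE either side, by the normal quantile, and so narrower than limma's test implies. That test gave Kif20a an unadjusted p of 0.0565. At 48 h the median difference was -0.24, and 42 of the 51 genes were lower in ras cells, against 50.3% of all features. The genes are read from the same 3 primary and 4 ras arrays and are not replicates. Kif4 differed by -1.004 (from -1.79 to -0.22, limma adjusted p 0.48), Birc5 by -0.66 (from -1.64 to 0.31) and Mki67 by -0.55 (from -1.19 to 0.10). Within upload blocks the 48 h median difference was -0.33 in block 39, -0.40 in block 40 and 0.25 in block 46. At 24 h it was 0.19, -0.09, -0.33 and 0.34 in blocks 35, 36, 39 and 40. The counts of genes called lower in ras and primary cells, 17 and 8 at 24 h and 4 and 0 at 48 h, thus do not show a difference between the cell types.

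In the Smad3 cells, which lack or carry the transcription factor that passes the TGF-β signal to the nucleus, 0 of the 51 genes were called between knockout and wild type (limma), against 1.73% of all features. The test takes the mean over primary and ras cells and assumes that each single array varies like the Balb/c groups. The median of knockout minus wild type was 0.44, with 7 of 51 genes below 0. The median of the 51 genes was -0.84 on the wild type primary array and -0.53 on the knockout primary array, and -0.03 and 0.34 on the ras arrays. The genes were thus low on both primary arrays, lower in wild type, and not on the ras arrays. Mki67 was at -1.89 in wild type and 0.05 in knockout primary cells, and at -0.07 and 0.78 in ras cells, a mean difference of 1.39 (SE 0.43, limma adjusted p 0.106). Cenpa was at -2.77 and -1.21, and at -0.66 and 0.49 (difference 1.35, limma adjusted p 0.564). Birc5 was at -1.74 and -0.38, and at 0.22 and 0.49. The smallest adjusted p were those of Ube2c and Hmmr, a spindle-associated hyaluronan receptor, which lay the other way (differences of -1.97 and -1.70, limma adjusted p 0.0616 and 0.0692). Ube2c was at 0.63 in wild type and 4.64 in knockout primary cells, and at 6.78 and -1.17 in ras cells, so that the difference had opposite signs in the 2 cell types. Hmmr was at 0.32 and -2.56, and at 1.80 and 1.29.

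**Figure D5:**
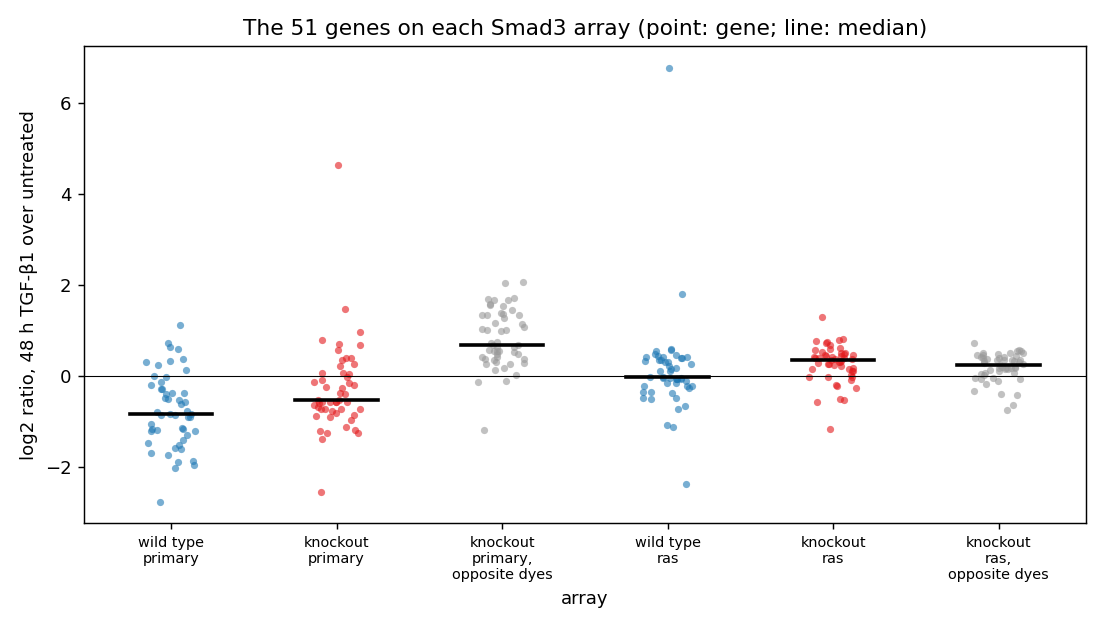
Log2 ratio at 48 h (y axis) of each of the 51 genes (points) and their median (black line) on the Smad3 arrays (x axis), wild type in blue, knockout in red and the 2 knockout arrays of opposite dyes, as deposited, in grey. The wild type primary median lies lowest at -0.84, and the knockout primary array of opposite dyes highest at 0.69.

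Other genes of the cell cycle were read from lists. Of 53 further genes of mitosis, 5 (primary) and 11 (ras) were called lower at 24 h, 3 and 4 at 48 h, and none higher in these 4 responses. The shares of all features called lower were, as above, 0.999% and 6.63% at 24 h and 3.44% and 1.59% at 48 h. Hmgn2, a nucleosome-binding protein, averaged -0.80 and -0.58 at 24 h, Spag5 (astrin, of the spindle and kinetochores) -0.67 and -0.85, and Tubb4b, a β-tubulin, -0.65 and -0.91, all called (limma). The lowest at 48 h in primary cells was Cit, citron kinase of cytokinesis, at -1.71. Of 14 regulators of G2/M, Gadd45a, which inhibits CDK1 and is induced by stress, rose in ras cells at 24 h (0.87) and 48 h (1.16). Its primary means were close to these, at 0.85 and 1.11, but were not called (limma adjusted p 0.107 and 0.0549). Lin54, the CHR-binding subunit of MuvB, fell in ras cells at 24 h (-0.32) and averaged -0.21 in primary cells (limma adjusted p 0.445). Of 11 G1 cyclin and CDK inhibitor genes, Cdkn2b, the p15 inhibitor of CDK4 and CDK6 and a textbook TGF-β target, rose at 24 h in primary (0.88) and ras cells (0.75) and at 48 h in ras cells (1.05). At 48 h in primary cells Cdkn2b averaged 0.86 and was not called (limma adjusted p 0.065). Of 41 DNA replication genes 5 (primary) and 8 (ras) were called lower at 24 h (against 0.999% and 6.63% of all features), among them Mcm5 of the replicative helicase (-1.01 and -0.69) and Tyms, thymidylate synthase (-0.60 and -0.74). At 48 h in primary cells calls in this list went both ways, with 2 lower, among them Lig1, DNA ligase I (-2.08), and 1 higher, Dut, the dUTPase (1.58), and 2 were lower in ras cells.

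Markers of other states moved beside the mitotic genes, and their counts stand against shares of all features of 3.44% lower and 5.2% higher at 48 h in primary cells, 1.59% and 1.97% in ras cells, and those given above at 24 h. Of the 7 markers of keratinocyte differentiation, 3 fell at 24 h in each cell type and 4 at 48 h, with Sprr2a1 at -2.45 and -1.13 at 24 h. Of 8 basal keratinocyte markers, 0 fell at 24 h and 1 rose in ras cells, and 3 fell at 48 h in primary cells, among them Trp63 (-1.005). Of 11 fibroblast markers 4 rose at 48 h in primary cells and none was called in the other 24 h and 48 h responses. Of 18 immune markers 4 rose and 1 fell at 48 h in primary cells, with Lyz2 at 2.59, and 1 rose (Lyz2, the lysozyme of macrophages) in each of the other 24 h and 48 h responses, beside 1 that fell in ras cells at 24 h. Among 4 melanocyte markers 1 (Sox10) fell in ras cells at 24 h, and none of 8 endothelial markers was called in these responses. Their part in the values of the mitotic genes was not tested.

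The genes with a CHR of either form in the window were set beside those without. At 24 h the 26 genes with one had a median of -0.48 in primary and -0.45 in ras cells, and the 17 without had -0.39 and -0.32. Called lower in ras cells were 10 of the 26 and 5 of the 17. At 48 h the ras medians were -0.47 with a CHR and -0.03 without, while the primary medians lay closer, at -0.17 and -0.11. The 8 genes that have no window had 48 h medians of -0.63 (ras) and -0.38 (primary), lower than the genes with a CHR. Their 24 h medians were -0.42 (primary) and -0.32 (ras). These are descriptions of a choice of genes, with no test.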

How the data were processed

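Responses of 50 Balb/c and 6 Smad3 arrays were deposited as 1 log ratio per probe and array; it was used as log2 of TGF-β1 over untreated, as the deposited values and the channel order in the labels allow, while the sources used here do not give its base, centring or background correction. Of 9596 probes, 7486 carry 1 symbol, 483 several and 1627 none. Probes of a symbol were averaged (8905 features), arrays were centred on their medians, and all groups were fitted together with limma 3.58.1 (R 4.3.3), with Benjamini-Hochberg adjustment over 8905 features and calls at 0.05, in 17 comparisons. The fit was tested on simulated data with independent noise of equal spread on every array. The real arrays differ in spread, so that run does not test the calls made here. Spot brightness was not used. The 7 arrays with TGF-β1 RNA in Cy3 were left out. Members and gene lists were chosen with earlier results of these data known. Values by array are given for genes called at 24 h in both cell types, the 3 furthest from 0 each way in each 24 h and 48 h response, and those called in a contrast, and other members by role. Alternatives covered dyes, centring, scaling, weights, upload blocks, pairing and each array left out.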

Additional observations from a re-analysis of the deposited data

Results flagged for a closer look

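In 100 sets of arrays (the genes given by array or called, at 24 h and in ras cells at 48 h, and the group medians), 9 held a single array far from the others. Chance gives about 1 in 20 in sets not chosen for their values, but some genes were chosen for large means that such an array can make (Ncapd3, Cdc25c), so that rate does not apply here. On primary 24 h replicate 6, Cenpe was at -1.20 (the others from -0.43 to -0.18) and Cks2 at -0.89 (from -0.44 to -0.20). Ncapd3 was at -5.81 on primary 24 h replicate 1 (from -0.72 to 0.25) and Ncaph at 0.13 on replicate 4 (from -0.86 to -0.79). Ube2c was at 1.16 on ras 24 h replicate 3 (from -0.41 to 0.17). On ras 48 h replicate 4, Anapc4 was at -0.23 (from 0.66 to 0.83), Cenpw at 0.10 (from -0.83 to -0.68) and Kif11 at 0.024 (from -1.44 to -1.34). Cdc25c was at -4.02 on ras 48 h replicate 1 (from -0.34 to 0.27).

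Between times of 1 cell type, 7 responses differed by limma's test of the difference. They were the falls from 1 to 24 h of Birc5 in primary cells (-1.72) and of Cenpa (-1.36), Cenpe (-0.79), Kif20a (-1.69), Ncaph (-0.87) and Top2a (-1.28) in ras cells, and the higher value of Cks2 at 48 h than at 24 h in primary cells (1.09).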

How the results depend on the processing

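With every array left out in turn, 13 of 38 called values held. None of the 38 changed direction in the 9 to 11 settings run for each beside single arrays left out. A fit on each group's own arrays leaves the mean as it is, so the direction could not change in that setting. Called values lie away from 0, so a kept direction says little about the calls. Counts of the 51 genes called either way moved by over 1.5 times as follows, and the cause was not tested. Calls among all features are given, further above, only for the own arrays and the block splits at 24 h. The other counts below, also those with 1 array left out, thus stand without that background. With each group's own arrays alone, the counts at 24 h (8 primary, 18 ras), 48 h (1 and 4), from 1 to 24 h (1 and 5) and from 24 to 48 h in primary cells (1) all became 0. Array weights gave 18 at primary 24 h, 3 from 1 to 24 h in primary cells, 14 in ras cells, 1 at ras 1 h, 3 at ras 6 h, 7 at ras 48 h, 3 for ras against primary cells at 24 h and 3 for Smad3. Scaling gave 17 at primary 24 h, 2 from 1 to 24 h in each cell type, 0 at primary 48 h and from 24 to 48 h, 1 at ras 6 h and 1 for Smad3. The reversed arrays as deposited gave 4 and 10 at 24 h, 0 from 1 to 24 h in both, 3 from 24 to 48 h in primary cells, 1 at ras 48 h and 1 for Smad3. Turned with a dye term they gave 11 at ras 24 h, 0 at 48 h in both cell types, 0 from 24 to 48 h in primary cells and 2 for Smad3. Upload blocks 34 to 36 alone gave 3 and 6 at 24 h, and blocks 39 and 40 alone 22 at primary 24 h, and 2 and 15 at 48 h. The block as a random term gave 8 from 1 to 24 h and 2 at 48 h in ras cells and 2 for Smad3. Without the 2 widest arrays there were 1 from 1 to 24 h and 7 at 48 h in ras cells, and 1 for Smad3. With the sign of primary 1 h replicate 3 turned, 0 remained from 1 to 24 h in primary cells.

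With 1 array left out, counts ran from 3 to 8 at primary 24 h, 10 to 24 at ras 24 h, 0 to 2 at primary 48 h, 1 to 15 at ras 48 h, 0 to 2 and 1 to 10 from 1 to 24 h (primary, ras), 0 to 2 from 24 to 48 h in primary cells and 0 to 1 for ras against primary cells at 48 h, and were 0 in the other comparisons. With the replicate number as a block there was 1 call from 1 to 24 h in each cell type and 0 from 24 to 48 h in primary cells. The calls of Cenpa, Cenpe, Ncaph and Top2a (ras, limma adjusted p from 0.0508 to 0.062) and of Cks2 (primary, 0.0967) were not made with this block. Deviations of same-numbered arrays correlated at -0.23 to 0.39 between cell types, at -0.08 to 0.29 between 1 and 24 h and at -0.13 to 0.07 between 24 and 48 h, so the numbers were not taken to pair the arrays.

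The number of arrays limits precision, most of all at 48 h and for Smad3. Without spot brightness, dim or saturated spots could not be told from well-measured ones.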

Other observations

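The 7 arrays with the treated RNA in Cy3 entered no comparison. As deposited, the median of the 51 mitotic genes was 0.26 and 0.23 on primary 48 h replicates 3 and 4, 0.17 on ras 24 h replicate 4, 0.06 on ras 6 h replicate 5 and -0.01 on ras 48 h replicate 5. On the Smad3 knockout arrays it was 0.69 (primary) and 0.24 (ras). Over the 51 genes the values of ras 24 h replicate 4 correlated with the mean of the other ras 24 h arrays at -0.61, and those of the knockout primary array with the other such array at -0.53. Over all 8905 features the 2 correlations were 0.05 and 0.48. Whether the sign of these arrays was turned before deposit is not stated in the labels.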
